A study of Caenorhabditis elegans with 2 samples.

Results

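The 10 genes described here set the sex of Caenorhabditis elegans and equalise the output of its X chromosomes, and the measurement is the binding of the homeodomain protein CEH-88 at their loci. They are xol-1, sex-1, fox-1, sdc-1, sdc-2, sdc-3, dpy-27, dpy-28, dpy-21 and her-1, which are 10 of the 19973 protein-coding genes on the 6 nuclear chromosomes. The set was proposed with peaks of these data already known, so the members were chosen from the peak values reported below, and their counts and signals are descriptions with no test. A gene's window was its body plus 6 kb on each side in the Ensembl annotation of WBcel235, the assembly also called ce11. The genes sex-1, fox-1, xol-1, sdc-1 and sdc-2 lie on X, sdc-3, dpy-21 and her-1 on V, and dpy-27 and dpy-28 on III.

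The assay was ChIP-seq, in which chromatin is immunoprecipitated and its DNA sequenced, on entire L1 (first larval stage) animals aged 6 h, which had been obtained by bleaching and then starved. The worms were of strain OP593, in which the transgene wgIs593 supplies ceh-88::TY1 EGFP 3xFLAG and unc-119(+) in an unc-119 (tm4063) background, and anti-GFP antibody recovered the tagged protein. Both samples were of this single genotype, stage and treatment, as 2 biological replicates of 1 group. The strain carries 1 such transgene, all cell types of the larvae were pooled, sex was not recorded, and larvae lacking the tag were not analysed here. Binding by CEH-88 and chromatin that any antibody would recover therefore cannot be told apart at any locus below.

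In C. elegans the number of X chromosomes relative to the autosomes is read in the early embryo by X signal elements, which keep the master switch gene xol-1 off in XX animals. With xol-1 off, the SDC proteins become active, shut the male-promoting gene her-1 and load the dosage compensation complex onto both X chromosomes, where it lowers transcription. The complex resembles condensin, the machine that compacts mitotic chromosomes, and reaches X through recruitment sites at which a short sequence motif recurs. Most of these decisions are made before hatching, and in L1 larvae the complex remains on X.

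A region is an interval ranked by the authors' pipeline, and its signal is the caller's measure of strength, which has no unit and was compared only within a list or between the replicates as deposited. Its score, up to 1000, follows the irreproducible discovery rate (IDR), and 830 corresponds to an IDR of 0.01. A peak is a region of a thresholded list, and all of these are past that threshold. The strongest region of each ranked list was not among its peaks. In the replicate-built list it had a signal of 1118, where the highest peak had 1010, and the reason was not tested. The main list, called conservative by the authors, held 1171 peaks, another whole-series list held 1349, and the replicates' own lists held 1128 (replicate 1) and 698 (replicate 2). The corresponding ranked lists, which keep regions below the threshold, held between 85787 and 122341 regions. Read depth was unknown, so the intervals given cover the counting of genes or peaks only.

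The sequences under the strongest whole-series summit in each of the xol-1, fox-1, dpy-28 and dpy-21 windows are shown first. Each is the 151 bases centred on the summit, from the RefSeq copy of the ce11 genome, plus strand, 5′ to 3′. Capitals mark matches on either strand to the searched motifs, of which only 3 occurred in these windows, CGCAGGG, the ONECUT type site ATCGAT and the repeat GAGAGA. The windows are chrX:8036362-8036512 for the stronger xol-1 peak, chrX:2464190-2464340 for fox-1, chrIII:10759178-10759328 for the peak in the dpy-28 window and chrV:17951292-17951442 for the peak in the dpy-21 window.
xol-1: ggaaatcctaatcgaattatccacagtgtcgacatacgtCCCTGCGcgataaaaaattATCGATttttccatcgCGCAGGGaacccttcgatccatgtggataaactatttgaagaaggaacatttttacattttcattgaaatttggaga
fox-1: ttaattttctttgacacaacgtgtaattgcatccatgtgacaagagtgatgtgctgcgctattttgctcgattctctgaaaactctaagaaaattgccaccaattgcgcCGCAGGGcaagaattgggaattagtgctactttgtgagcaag
dpy-28: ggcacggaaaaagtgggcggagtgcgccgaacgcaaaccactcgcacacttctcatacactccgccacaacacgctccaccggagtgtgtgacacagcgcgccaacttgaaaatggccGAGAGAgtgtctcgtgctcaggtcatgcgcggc
dpy-21: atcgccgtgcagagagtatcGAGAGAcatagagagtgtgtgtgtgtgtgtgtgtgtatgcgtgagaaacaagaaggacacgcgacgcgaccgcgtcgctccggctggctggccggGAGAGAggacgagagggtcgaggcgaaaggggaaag

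Both printed X-linked windows held CGCAGGG, part of the motif that recurs at X recruitment sites of the dosage compensation complex. The xol-1 window held it in both orientations, read as CCCTGCG and then CGCAGGG on the plus strand, with an ATCGAT between the copies. The summit window of the weaker xol-1 peak, which is not printed, held none of the searched motifs and 34.4% G and C. The 2 printed autosomal windows held GAGAGA and no CGCAGGG. Across the series GAGAGA was no rarer on X, in 33.0% of conservative windows there and 25.4% on the autosomes. The printed dpy-28 and dpy-21 windows were also rich in G and C, at 60.3% and 59.6%. That is more than 97.7% and 97.2% of the conservative summit windows. The printed xol-1 window had 38.4% and fox-1 41.7%, beside a median of 45.0% over the 1171 conservative windows. Over the series the difference ran the other way, with medians of 47.7% at conservative peaks on X and 44.4% on the autosomes.

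Of the 10 genes, 3 had a conservative peak in their window (30%, exact 95% interval 6.67 to 65.2), namely xol-1, dpy-28 and dpy-21, where the same count over all protein-coding genes was 16.2%. The other whole-series list added fox-1, giving 4 of 10 (40%, interval 12.2 to 73.8) beside 17.9% of all genes. Replicate 1 alone gave xol-1, dpy-28 and dpy-21 beside 15.6% of all genes, and replicate 2 alone gave those and fox-1 beside 10.4%. The genes are long, with a median of 7916 bp against 2027 bp for all protein-coding genes, and a longer window has more room for a peak. Among the 5772 genes within the same span of lengths, 20.1% had a conservative peak, 22.3% one in the other list, 19.2% one in replicate 1 and 12.6% one in replicate 2. The median length of those genes was 4915.5 bp, still below that of the members, so length was matched only in part. Since the choice of the members used these peaks, their intervals are no test against any of these shares. No excess can be read from the counts.

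No peak summit lay in the promoter window of any of the 10 genes, taken as 1000 bp upstream to 200 bp downstream of a transcript start. The count was 0 of 10 in all 4 lists (exact 95% upper limit 30.8%). Of all protein-coding genes, 4.73% had a conservative summit there. As the members were chosen from these peaks, the limit is no test against that share. Every peak near these genes was upstream of its gene body, between 2174 and 4876 bp from the annotated start in the conservative list. Measured to the nearest protein-coding start of any gene, the dpy-28 window's peak lay at 54 bp (tasp-1), that of dpy-21 at 582 bp (Y59A8B.24) and those of xol-1 at 4876 and 4665 bp (xol-1 itself). On that measure the median over all conservative summits was 422 bp, and 19.9% lay 2000 bp or more away.

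**Figure D1:**
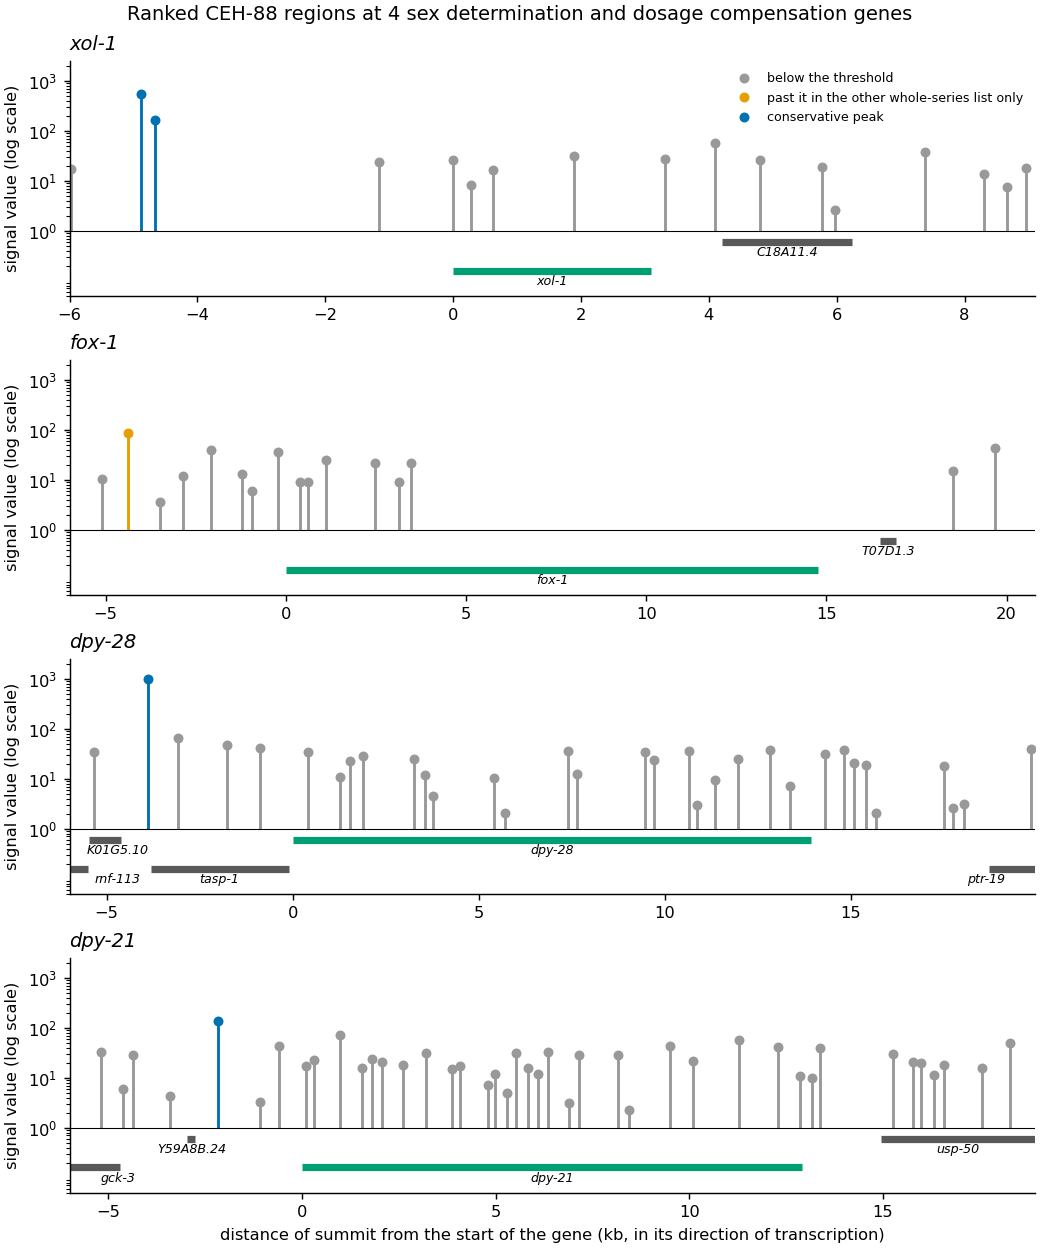
Ranked regions around xol-1, fox-1, dpy-28 and dpy-21, with the distance of each summit from the start of the gene in kb on the x axis and its signal in the replicate-built whole-series list on a log y axis. Green bars are the named gene, dark bars its protein-coding neighbours, and blue stems the conservative peaks, which lie upstream of the green bar in the xol-1, dpy-28 and dpy-21 panels. The orange stem at fox-1 (signal 87.4) passed the threshold in the other whole-series list only.

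The X signal elements stand at the top of the pathway. The gene sex-1, which encodes a nuclear hormone receptor that represses xol-1 transcription, had no peak in any list. Its highest signal in the replicate-built ranked list was 34.3, at a region 2171 bp upstream with a score of 26, and only 16.6% of protein-coding genes had a lower best signal. Replicate 1 had its best sex-1 region in an intron at 24.6 (score 73), and replicate 2 had its best upstream at 21.2 (score 69), so the replicates did not rank the same place first. The other whole-series list held a region of 56.3 with a score of 23 in the window, above the best signal of 74.4% of genes, but its summit was past the end of sex-1, in the promoter window of the neighbour nucb-1 and 229 bp upstream of its start. The window was also sparse, with 6 ranked regions or 0.373 per kb, where the median over all genes was 1.28 per kb.

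The gene fox-1 encodes an RNA-binding protein that lowers xol-1 output through its transcript. A region at chrX:2464067-2464462, in intergenic sequence 4372 bp upstream of fox-1 and with fox-1 as the nearest protein-coding start, had a signal of 87.4. It scored 756 in the replicate-built list, just under the threshold of 830, and 1000 in the other list, where it ranked 863 of 1349. Replicate 2 called it a peak with a signal of 56.3, rank 493 of 698. In replicate 1 the same region had a signal of 28.6 and a score of 247, and the best fox-1 region was instead 220 bp upstream of the start, at 31.5 with a score of 313. The fox-1 peak was therefore present past the threshold in 1 of the 2 replicates. The log2 ratio of replicate 1 to replicate 2 was −0.98. The region passed in replicate 2 only and is no conservative peak, so its ratio was given no rank among theirs.

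The gene xol-1 encodes the switch protein itself, which sets male fate where it is active, and had the strongest peaks on X among the 10 genes. The stronger peak, chrX:8036279-8036565, had a signal of 535.7 and ranked 26 of 1171. Its summit lay 4876 bp upstream of the start in intergenic sequence, and xol-1 was the nearest protein-coding start. Replicate 1 gave this place a signal of 216.6 (rank 69 of 1128) and replicate 2 gave it 305.6 (rank 10 of 698), with summits 53 bp apart. It was thus a peak in both replicates and stood higher in replicate 2. Of all protein-coding genes, 99.5% had a lower best signal than xol-1.

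A weaker conservative peak at chrX:8036450-8036845 overlapped the stronger one, with a signal of 165.9 (rank 358) and its summit 4665 bp upstream of xol-1. Neither replicate called this place past the threshold on its own, with region signals of 72.6 (score 17) in replicate 1 and 61.3 (score 217) in replicate 2. A tRNA gene (WBGene00022939, chrX:8036685-8036757) lay 37 bp from this summit and 248 bp from the stronger one, and the noncoding RNA gene C18A11.13 overlaps it. The part of the tRNA gene in either peak was not tested. At the start of xol-1 itself a region 2 bp upstream had a signal of 26.5 and a score of 30, and the next strongest region of the window, 4097 bp downstream of the start and 108 bp upstream of the neighbour C18A11.4, had 58.0 and a score of 551.

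The SDC genes encode the proteins that recruit the dosage compensation complex to X, with sdc-2 acting as the hermaphrodite-specific trigger, and none of the 3 had a peak in any list. For sdc-1 the highest signal was 40.8, at a region 111 bp downstream of the start of the neighbour ifa-3 with a score of 27. Its highest score, 140, was at F52E10.4 on the other side. For sdc-2 the highest signal was 32.6, in a coding exon with a score of 43. For sdc-3 it was 35.5, in an intron with a score of 27. Best signals lower than these were found for 40.0% of genes (sdc-1), 11.3% (sdc-2) and 20.4% (sdc-3). In the replicates the best regions of each window lay at different places (replicate 1 first). For sdc-1 they had 28.0 at F52E10.4 and 24.6 at ifa-3, and for sdc-2 19.8 at gcp-2.2 and 22.1 at C35C5.9. For sdc-3 they had 19.9 upstream of the gene and 20.9 in its intron. All 3 genes lay below the median gene in the whole-series lists. In replicate 1 sdc-1 was above it, at 56.0%, through the region at F52E10.4.

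Of the dosage compensation complex, dpy-27 encodes the condensin-like SMC subunit that is specific to X and had no peak. Its highest signal in the replicate-built list was 38.4, downstream of the gene with a score of 42. Its highest score was 163, at a region 708 bp upstream of its own start with a signal of 31.1. Replicate 1 ranked a region 1595 bp upstream highest, at 30.9 with a score of 292, and replicate 2 had 23.0, at 905 bp upstream with a score of 18. The best signals stood above 66.0% of genes in replicate 1 and 34.7% in replicate 2.

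The gene dpy-28 encodes a HEAT-repeat subunit of both the dosage compensation complex and condensin, and its window held the strongest peak in each of the 4 thresholded lists. The peak at chrIII:10759109-10759407 had a signal of 1010 in both whole-series lists, 559.9 in replicate 1 and 455.6 in replicate 2, with replicate summits 7 bp apart. Its summit was 3878 bp upstream of dpy-28 but 54 bp upstream of tasp-1, and it lay in the promoter windows of tasp-1 and K01G5.10. The gene tasp-1, named for the protease taspase, stands between the summit and dpy-28, and the peak reaches over its start. Between that peak and dpy-28, regions within tasp-1 had signals of 64.6 (score 694) at 3076 bp and 48.1 (score 198) at 1756 bp upstream of the dpy-28 start. In the promoter window of dpy-28 itself the strongest region of this list was 876 bp upstream, inside an intron of tasp-1, with a signal of 41.8 and a score of 72. Replicate 2 had regions at 883 bp upstream (34.4, score 195) and 93 bp upstream (24.5, score 15), and replicate 1 had none in the dpy-28 promoter window.

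The gene dpy-21 encodes the subunit with histone demethylase activity, which alters histone H4 methylation on X. Its peak at chrV:17951169-17951564 had a signal of 136.6 and ranked 466 of 1171. The summit was intergenic, 2174 bp upstream of dpy-21 and 582 bp upstream of Y59A8B.24, which had the nearest start. Replicate 1 gave 80.8 (rank 490 of 1128) and replicate 2 gave 61.6 (rank 427 of 698), with summits 47 bp apart, so both replicates placed it in the middle of their own lists. Below the threshold, an intronic region 969 bp downstream of the start had a signal of 71.8 and a score of 614. Its score was 801 in the other list. The region in its own promoter, 596 bp upstream, had a signal of 42.6 and a score of 152.

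The gene her-1 encodes the secreted protein that promotes male fate by binding the receptor TRA-2, and is the autosomal target that the SDC proteins repress. It had no peak in any list. Its best region had a signal of 37.1 and a score of 87, in an intron and 208 bp upstream of an internal transcript start. The same place had 15.4 in replicate 1 and 18.0 in replicate 2. A region 468 bp upstream of the first start had 27.2 and a score of 61. Only 26.1% of protein-coding genes had a lower best signal, and in replicate 2 only 8.03% did.

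**Figure D2:**
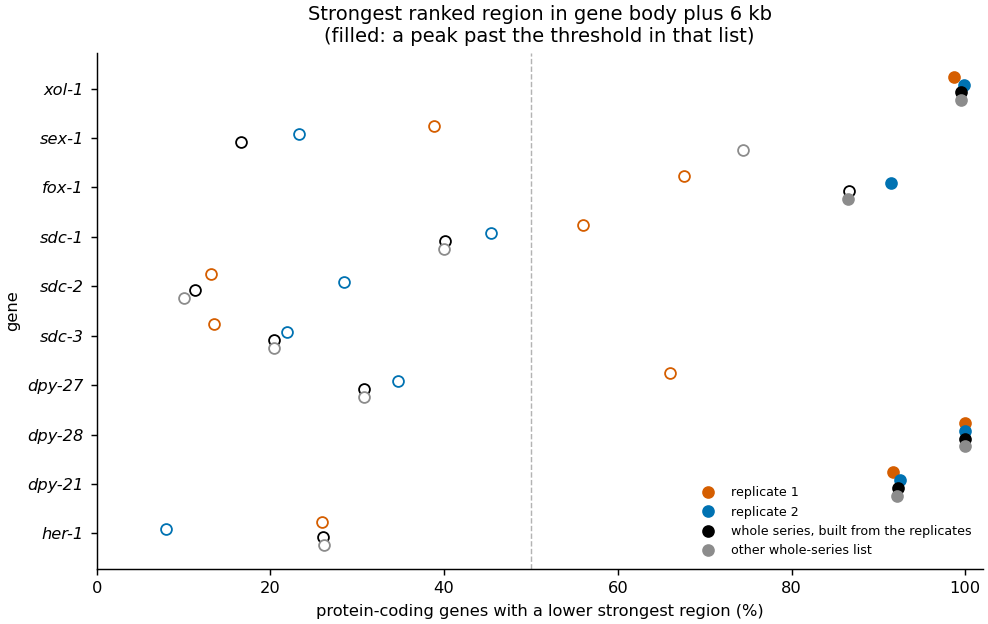
For each of the 10 genes, the x axis gives the percentage of all protein-coding genes whose strongest ranked region has a lower signal, in the replicate lists and the whole-series lists. Filled points mark genes with a peak past the threshold in that list. The genes xol-1, dpy-28 and dpy-21 sit at the right in every list, and the grey point of sex-1 (74.4%), from a region at nucb-1, stands far from its other points.

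Ordered by best signal in the replicate-built list, the genes ran dpy-28 (1010), xol-1 (535.7), dpy-21 (136.6), fox-1 (87.4), sdc-1 (40.8), dpy-27 (38.4), her-1 (37.1), sdc-3 (35.5), sex-1 (34.3) and sdc-2 (32.6). The lower 6 spanned a narrow range, and their order was not kept between the replicates: sdc-2 was above her-1 in replicate 2 (22.1 against 18.0) and below it in replicate 1 (19.8 against 22.5). The median over the 10 genes was 39.6, and that over all protein-coding genes was 43.5. In the replicate-built list 4 of the 10 lay above the median gene, with 5 in the other list, 6 in replicate 1 and 4 in replicate 2. Members on X had a conservative peak in 1 of 5 cases and autosomal members in 2 of 5, beside 15.2% of X genes and 16.4% of autosomal genes.

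The replicates differed in a common direction over the conservative list, and the stronger xol-1 peak lay on the other side. Of the 1171 conservative peaks 1152 had a region in both replicates. The log2 ratio of replicate 1 to replicate 2 had a median of 0.36 with an SD of 0.50 over these peaks, and it was above 0 at 76.8% of them. The peak near dpy-28 (0.30) and the peak near dpy-21 (0.39) lay close to that median. The stronger xol-1 peak had −0.50, lower than all but 55 of the peaks (4.77%), just below the 5th percentile of −0.48 (the 95th was 1.20). With 2 replicates of 1 group no test of these ratios was available. The weaker xol-1 peak took the same −0.50 from its stronger neighbour when the strongest overlapping region was read, and 0.24 when the region of nearest summit was read.

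**Figure D3:**
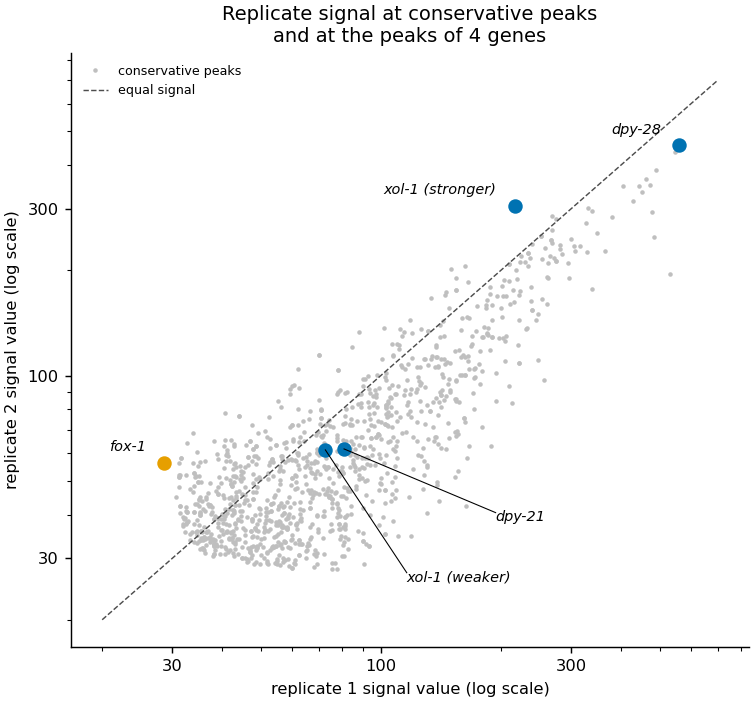
Signal of each conservative peak in replicate 1 (x axis) and replicate 2 (y axis), both on log scales and without a unit. Grey points take the strongest overlapping region of each replicate and coloured points the region of nearest summit, with the dashed line at equal signal. The stronger xol-1 peak (216.6 and 305.6) lies above the line and dpy-28 and dpy-21 below it, and fox-1 (28.6 and 56.3), which is no conservative peak and passed in replicate 2 only, lies above it.

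Of the 39 other annotated pathway genes, 10 had a conservative peak (25.6%, exact 95% interval 13.0 to 42.1), beside 16.2% of all genes. A summit in the promoter window was found for 3 of the 39 (7.69%, interval 1.62 to 20.9), beside 4.73% of all genes. The median length of the 39 genes was 4029 bp. The 3 with a promoter summit were mog-4, set-4 and hcp-6. The peak 262 bp upstream of mog-4, which encodes an RNA helicase needed for the switch from sperm to oocytes, was the third strongest in the list at 868, with 489.4 in replicate 1 and 387.2 in replicate 2. At set-4, which encodes a histone H4 methyltransferase, a peak 283 bp upstream had 150.0, with 93.0 in replicate 1 and 57.9 in replicate 2. At hcp-6, a condensin subunit, a peak 106 bp upstream had 152.5 and was also in the promoter window of let-630.

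By role, the rest of the dosage compensation complex and of X chromatin had a conservative peak at 3 of 7 genes, set-4, mix-1 and set-1. Against the 16.2% of all genes, groups of 1 to 12 genes are too small to be read as above or below it, and the counts by role are descriptions. The mix-1 peak (122.0) was intronic, with the snoRNA gene M106.6 no more than 250 bp away, whose part in it was not tested, and the set-1 peak (106.5) was in the promoter window of jhdm-1. Condensin partners had a peak at 1 of 4 genes. Sex determination genes below her-1 had a peak at 4 of 9, tra-2, fem-2, laf-1 and sup-26. The strongest of these was 336.3, 2017 bp upstream of sup-26, an RNA-binding regulator of tra-2, and the peaks in the windows of tra-2, fem-2 and laf-1 had their summits in the promoter windows of other genes. Autosomal signal elements had 1 of 2, an intronic peak in sea-2 (86.7) that was not in the list of either replicate. Germline sex determination genes had 1 of 12, mog-4, and fog-1 was added in the other list (78.1) and in replicate 2 (48.8). The only X signal element matched in this list, ceh-39, which encodes a ONECUT homeodomain protein, had a peak in replicate 1 only (59.0). The 4 TRA-1 targets had no peak.

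**Figure D4:**
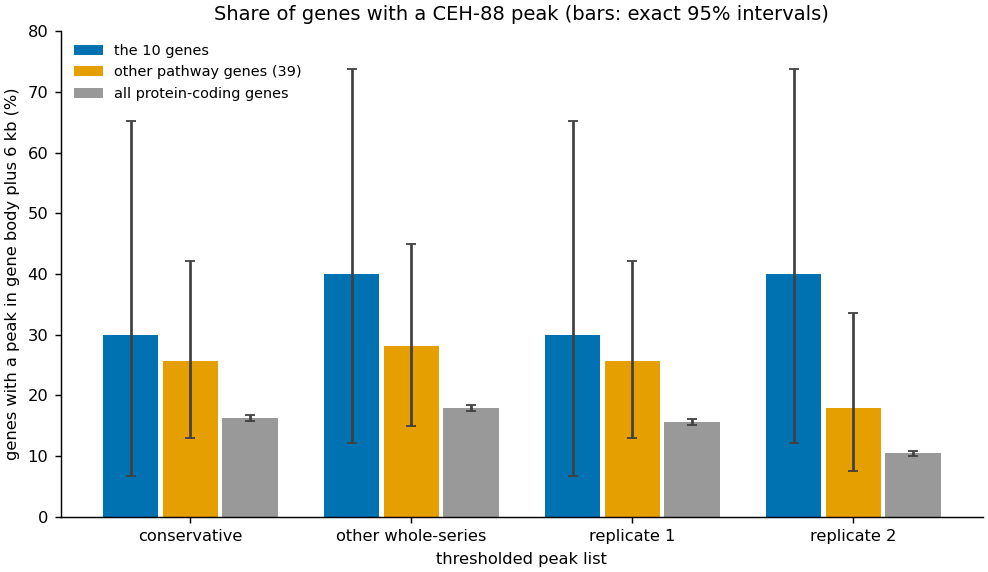
Percentage of genes with a peak in their window (y axis, from 0) for the 10 genes, the 39 other pathway genes and all protein-coding genes, in each of the 4 thresholded lists. Error bars are exact 95% intervals over genes. The interval of the 10 genes runs from 6.67 to 65.2% in the conservative list. Since these genes were chosen from these peaks, their intervals are no test against the grey bars of all genes.

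The motif CGCAGGG, searched on both strands, occurred at 5 places in the windows of the 10 genes, 2 of them at xol-1 and the others at fox-1, sdc-2 and her-1. The 3 copies inside peaks or near-threshold regions are printed below with 5 bases on each side, each read along the strand of the motif, 5′ to 3′, with the motif in capitals. The first xol-1 copy is on the minus strand at chrX:8036401-8036407, the second on the plus strand at chrX:8036436-8036442, and the fox-1 copy on the plus strand at chrX:2464299-2464305.
xol-1, first copy: tatcgCGCAGGGacgta
xol-1, second copy: catcgCGCAGGGaaccc
fox-1 copy: tgcgcCGCAGGGcaaga

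The xol-1 copies pointed away from each other on opposite strands, with starts 35 bp apart, at 33 bp and 2 bp from the summit, and shared 12 of these 17 bases. The fox-1 copy, 37 bp from its summit, shared 9 and 8 of 17 bases with them. Of these, 7 are the motif itself, so few bases outside it were shared. The remaining copies had no such signal. A copy in the window of sdc-2, past its end at chrX:11536613-11536619, lay in a region with a signal of 18.8 and a score of 27, and a copy in an intron of her-1 lay in no ranked region.

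Across the genome, CGCAGGG was in 32 of the 1171 conservative summit windows (2.73%), in 0.257% of the 121008 windows of regions below the threshold and in 0.249% of 29773 windows of the same length at protein-coding transcript starts. On X it was in 18 of 209 conservative windows (8.61%, exact 95% interval 5.18 to 13.3), and on the autosomes in 14 of 962 (1.46%, interval 0.798 to 2.43). Below the threshold the shares were alike, 0.251% on X and 0.258% on the autosomes. Median G and C was 45.0% in conservative windows and 35.8% in those below the threshold. The part of base composition in these shares was not tested. The sequence itself occurred at 16.99 copies per Mb on X and 16.1 on the autosomes, and 24 of 301 copies on X (7.97%) lay in a conservative peak against 20 of 1329 (1.50%) on the autosomes. The xol-1 peak, at 535.7, was close to the highest signal of the 18 X peaks with the motif, whose median was 390.6 and whose range was 92.3 to 536.5. The 191 X peaks without it had a median of 105.1. Only 3 of the 18 held 2 or more copies, the xol-1 peak among them. At promoters were 4 of the 18 (22.2%), beside 39.7% of all conservative peaks on X. On the autosomes 12 of the 14 with the motif were at promoters (85.7%), beside 65.3% of all conservative peaks there. The 18 had a median log2 ratio of replicate 1 to replicate 2 of 0.10, and the 190 X peaks without the motif that had both replicates had 0.34.

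**Figure D5:**
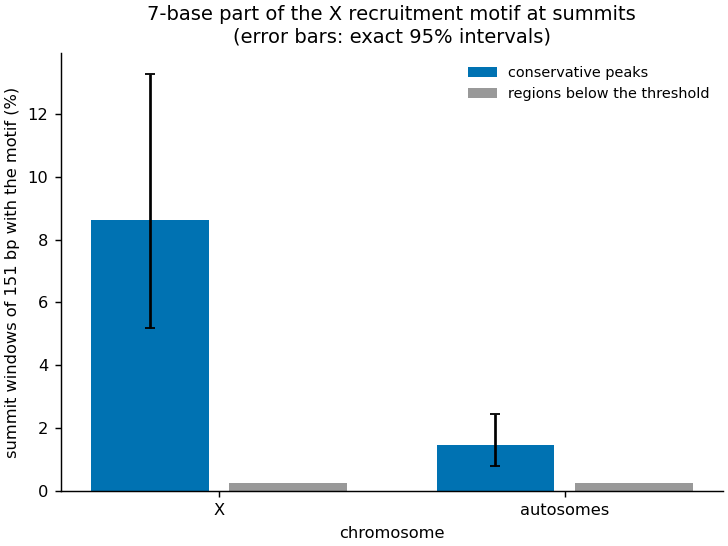
Percentage of summit windows of 151 bp that hold CGCAGGG on either strand (y axis, from 0), on X and on the autosomes, for conservative peaks (blue, with exact 95% intervals) and for regions below the threshold (grey). The blue bar on X stands at 8.61% and that on the autosomes at 1.46%, and the grey bars stand at 0.251% and 0.258%. Base composition was not matched, with median G and C of 45.0% in conservative windows and 35.8% below the threshold.

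The other motifs searched are given for comparison. GAGAGA was in both printed autosomal windows and in 26.7% of all conservative windows (33.0% on X and 25.4% on the autosomes). It was in 7.57% of windows below the threshold and 10.9% of windows at starts. ATCGAT was between the xol-1 copies and in 5.55% of conservative windows, 4.68% below the threshold and 7.22% at starts. The homeodomain core TAATTA was in none of the 4 printed windows and in 4.27% of conservative windows, against 6.72% below the threshold. The related ATTGAT was in none of them and in 10.1% against 14.5%. GGGTGGT, the core of the site of TRA-1, the terminal regulator of somatic sex, was in 1.20% of conservative windows and 0.686% below the threshold and in none of the 4. Windows below the threshold also held less G and C, with a median of 35.8% against 45.0%, whose part in these shares was not tested. Such matches describe letters in a window and say nothing of which protein was there.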

How the data were processed

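The files analysed were the authors' IDR peak lists (assembly ce11, per the labels), which cover 2 replicates of 1 group and the whole series. There were 4 thresholded and 4 ranked lists. The aligner is not given in the sources used here, nor is the caller. A region's deposited signal is the caller's strength without a stated scale, its deposited score runs up to 1000 (830 at an IDR of 0.01), and the deposited −log10 of a q-value entered no test. Fragments were 200 to 800 bp, per the labels. The replicate-built ranked list was told from the other by its input coordinates, which match the replicates' regions (68.4% and 78.5%, against 0% in the other list). A further 8 columns in the whole-series ranked lists describe the inputs of each list. Apart from the coordinates read for that match, they were not used.

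Genes came from Ensembl release 115 and sequence from the RefSeq copy of the same assembly. A peak counted for a gene when it touched the body plus 6 kb by at least 1 bp. A replicate's value at a peak was the strongest overlapping region of its own ranked list. Of 42 other pathway symbols 39 matched the annotation (sex-2, sea-3 and mog-6 did not). Named were the 10 members, each other pathway gene with a peak in any list, the genes of nearest start or promoter at members' peaks, and the highest ranked regions of members without one. All 6 motifs were searched on both strands. The members, lists and motifs were chosen with earlier results of these data known, so shares carry exact Clopper-Pearson 95% intervals and no test was made. Both replicates are biological per the labels. The overlap and promoter steps were tested on simulated data. Python 3.11.15, NumPy 2.4.6, pandas 2.3.3, SciPy 1.17.1 and Matplotlib 3.10.9 were used. Alternatives were another list, each replicate alone, a score of 1000, other windows and overlaps, and the region of nearest summit.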

Additional observations from a re-analysis of the deposited data

How the results depend on the processing

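The count of the 10 genes with a peak depended on the flank. It was 3 with 6 kb, 1 with 2 kb (dpy-21) and 0 within gene bodies alone. Over all protein-coding genes the count was 3240, 1852 and 649 for the same windows, and for the other pathway genes it was 3 within gene bodies (hcp-6, mix-1 and sea-2) against 10. With 1 replicate left out the counts ranged from 3 to 4 for the 10 genes, from 7 to 10 for the other pathway genes and from 2081 to 3111 for all genes. Promoter summits at the 10 genes stayed at 0 in the 6 alternatives run. The weaker xol-1 peak stood at the 69.5 percentile of signal in the conservative list and at 73.4 in the other list, which holds more peaks. Its log2 replicate ratio turned from −0.50 to 0.24 with the region of nearest summit, because the strongest region it overlaps belongs to its neighbour. The alternatives changed the window, the list or the replicates used, and the causes of the other shifts were not tested. No paired analysis was possible because there was 1 group and no comparison between groups. Unknown depth limits all values: a region under the threshold is not shown to be unbound.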
